A study of Mus musculus with 4 samples.

Results

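Genes for the enzymes and regulators of glycolysis, the pentose phosphate pathway and the tricarboxylic acid (TCA) cycle were followed in ILC2, the group 2 innate lymphoid cells of adipose tissue, which had been sorted from mice and profiled by RNA-seq. The members are a given list of 55 genes, matched by symbol to the deposited table of 10941 genes. Of these, 49 were listed, and Hk3, Pfkm, Aldoc, Pgd, Idh1 and Pcx were not analysed here. The study deletes Rptor, which encodes the Raptor subunit of the growth kinase complex mTORC1, with a Cre recombinase driven from the Il5 locus, so that recombination is limited to cells that have used this locus. All mice carried that Cre allele (Il5RFP-cre, R5/+), and the knockout additionally had floxed Rptor alleles (Rptorf/f) where the wild type had Rptor+/+. The sources used here give no age or sex and do not say that libraries came from separate animals. A p-value therefore reflects the spread among these libraries alone, which may be technical.

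There were 2 libraries per group, called here WT1, WT3, KO1 and KO3 after their columns in the table. The library names and the sample titles contradict each other in every sample: libraries named WT are titled Rptorf/f and libraries named KO are titled Rptor+/+. The groups are therefore called WT-named and KO-named, and every difference below is KO-named minus WT-named. Rptor itself was at 14.5 and 76.8 CPM (counts scaled to 1e+06 per library) in WT1 and WT3 and at 0.971 and 33.9 CPM in KO1 and KO3. These ranges overlap, so Rptor does not settle which label holds. Whether the remaining transcripts lacked the floxed part cannot be read from gene counts.

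Glycolysis splits glucose into pyruvate, which lactate dehydrogenase reduces to lactate or the pyruvate dehydrogenase complex passes to the TCA cycle. The pentose phosphate pathway diverts glucose 6-phosphate to NADPH and ribose. mTORC1 is known to raise glycolytic gene expression through the hypoxia-inducible factor Hif1a and pentose phosphate genes through SREBP, and activated lymphocytes are known for high lactate output.

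Totals ranged from 15258780 to 18856218 counts per library, and CPM values are scaled between libraries with TMM factors. Markers of ILC2 were present throughout: all 10 were listed, none was at 0 in any library, and their summed level was 14282 and 17238 CPM in the WT-named and 17068 and 13611 CPM in the KO-named libraries. Mast cell markers (10 of 10 listed, none at 0) summed to 7844 and 6440 CPM in WT1 and WT3 and to 10764 and 8035 CPM in KO1 and KO3. Fibroblast and stromal markers (3 of 10 listed) summed to 1016 CPM in KO1 and to at most 7.58 CPM elsewhere. Of the adipocyte list (3 of 10 listed) only the lipid synthesis genes Fasn, Dgat2 and Acaca were present, which are not limited to adipocytes. They summed to 126.0 and 45.7 CPM in WT1 and WT3 and to 6.65 and 6.04 CPM in KO1 and KO3, with Fasn at 0 in KO3. This sum therefore does not measure adipocyte content. T cell markers (2 of 7) lay between 101.1 and 241.7 CPM, with Cd3e at 0 in KO1 and KO3. Macrophage markers (2 of 7) lay at 2.02 and 13 CPM in WT1 and WT3 and at 29.3 and 32.7 CPM in KO1 and KO3, with Adgre1 at 0 in WT1. Cycling cell markers (2 of 5) summed to 1.70 and 0.751 CPM in WT1 and WT3 and to 170.4 and 86.7 CPM in KO1 and KO3. Nearly all of the latter was Mki67, at 169.3 and 86.1 CPM, while Birc5 overlapped between groups, between 0.322 and 1.12 CPM. The part of these mixtures in the results below was not tested. In such sorted bulk samples fewer cells of a type and less RNA per cell cannot be told apart.

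Per kilobase of the longest annotated transcript, Ldha had the highest mean level, at 386.7, 270.2, 63.5 and 208.2 CPM per kilobase in WT1, WT3, KO1 and KO3. Hif1a was second by its mean, at 96.6, 158.4, 106.2 and 169.1 CPM per kilobase, and its range overlapped that of Ldha. Aldoa, Mdh1, Gapdh and Mdh2 followed with mean levels of 111.7, 94.6, 92.2 and 79.7 CPM per kilobase, and the ranges of these neighbours overlapped too. All 49 members together took 0.528% and 0.382% of counts in WT1 and WT3 and 0.258% and 0.372% in KO1 and KO3. KO1 had the lowest share and WT1 the highest.

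No member differed between the groups by the main test, while a few were nearly absent from both KO-named libraries. Of the 48 members that passed the filter on low counts, edgeR's quasi-likelihood test with Benjamini-Hochberg adjustment at 0.05 called 0, as it did 0% of all 8753 genes tested. At an unadjusted p under 0.05 there were 3 lower members, Bpgm, Ldha and Ldhb (6.25%, against 6.34% of all genes tested), and 0 higher ones (against 3.47%). DESeq2 at an adjusted p of 0.05 called Ldhb, Bpgm and Tpi1 lower (3 of 49, 6.12%, against 6.42% of all genes) and Eno2 higher (2.04%, against 2.29%). limma-voom called Bpgm and Ldhb lower (4.17%, against 1.78%) and 0 higher (against 0.514%). The edgeR likelihood ratio test called 0 members, against 1.03% of all genes, and the fit with the library number as a block 0, against 0.286%. These shares were near the background for edgeR and DESeq2.

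The members' fold changes lay below 0 more often than those of all genes. The log2 fold change was below 0 in 30 of 48 members (62.5%), against 48.6% of all genes tested, and the median was −0.34 against 0.05. In 13 of 49 members (26.5%, against 18.6% of all listed genes) both KO-named libraries lay below both WT-named ones. In 5 members (10.2%, against 25.5%) both lay above, namely Pgam1, Eno2, Rpe, Pdk1 and Ogdh. Of these, Eno2 had 1 read in each of WT1, WT3 and KO3, so its KO3 value lay above only through the TMM scaling. The same held for Ogdh, with 2798 reads in both WT3 and KO3 (totals of 17868376 and 18856218 counts). Pdk1 too lay apart only through the TMM scaling, with 481 of 18151479 counts in WT1 and 393 of 15258780 in KO1. Without KO1 the median was −0.09 against −0.27 for all genes, and 52.1% of members against 56.2% of all genes tested were below 0. Without KO3 the median was −1.69 against −0.28, and 71.4% of members were below 0 against 55% of all genes. The members' excess below 0 was thus seen with KO1 and not without it.

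**Figure D1:**
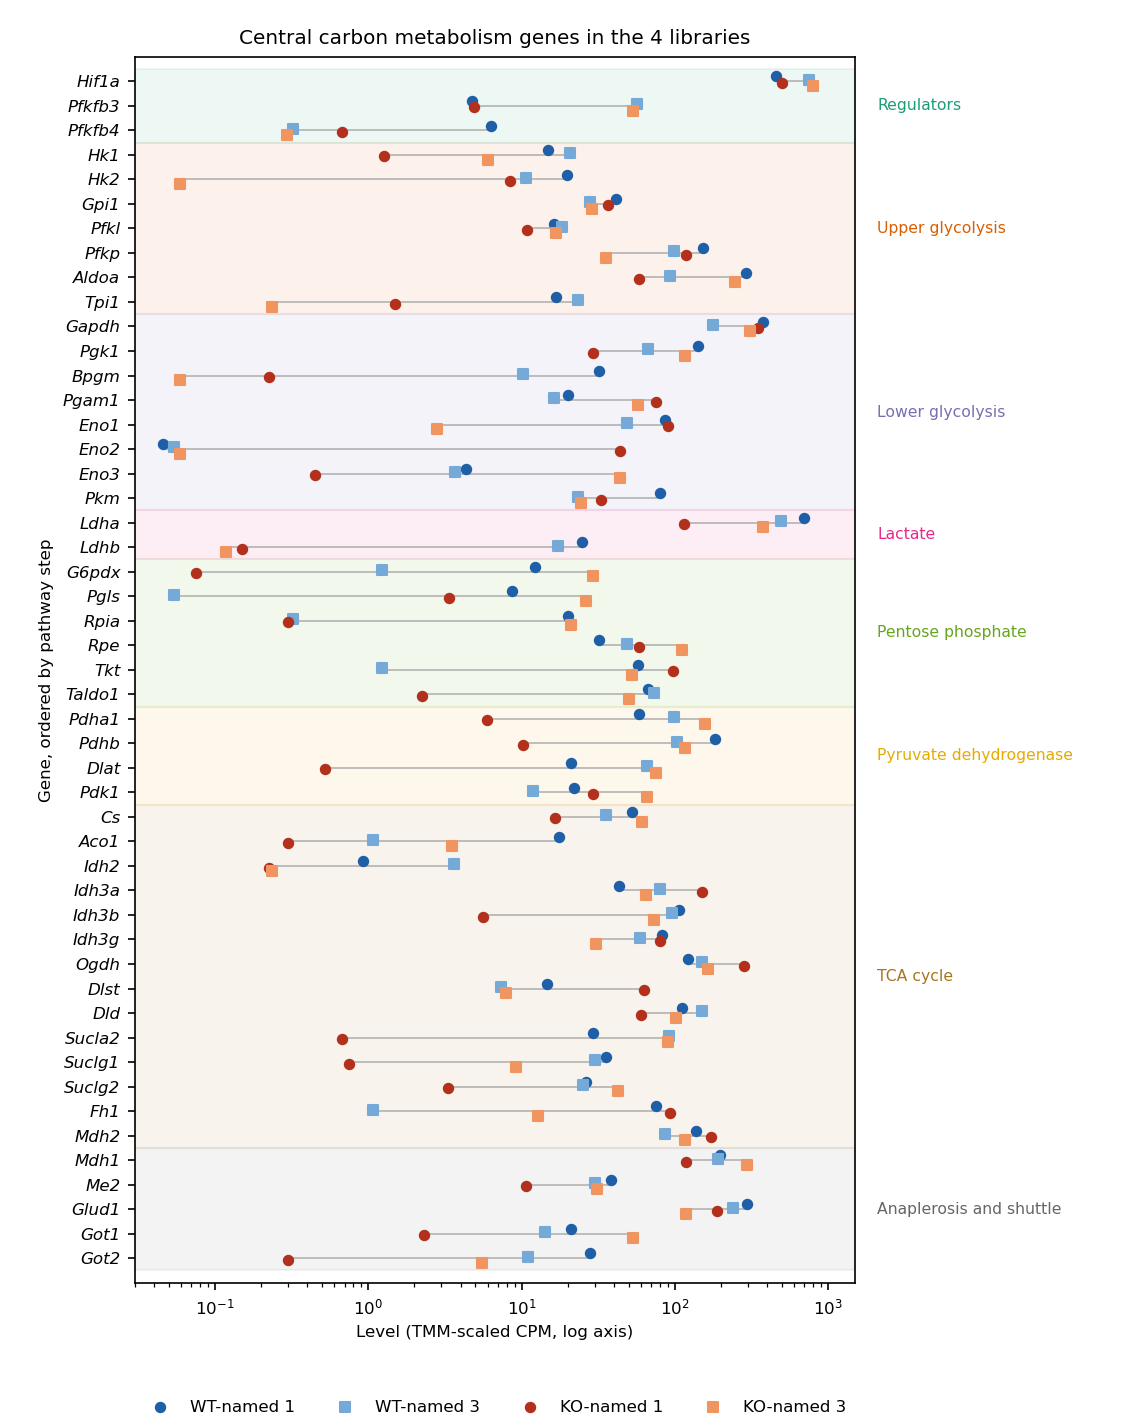
Level of each of the 49 listed members in TMM-scaled CPM on a log axis, ordered by pathway step, with 1 point per library (circles for libraries numbered 1, squares for those numbered 3, blue for WT-named, red and orange for KO-named) and a line over their range. Ldhb and Bpgm have both KO-named points at or below 0.224 CPM, whereas for 27 members the highest library is at least 10-fold above the lowest.

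Spread within a group was wide. In 27 of 49 members (55.1%, against 42% of all listed genes) the highest library was at least 10-fold above the lowest, with a level under 3 reads set to 3 reads. KO1 stood at least 10-fold below every other library in 7 members (14.3%, against 6.04%), namely Taldo1, Pdhb, Dlat, Idh3b, Sucla2, Suclg1 and Got2. Apart from the cytosolic Taldo1, their products are mitochondrial, as are those of many other members. Among the latter, Idh3a, Ogdh, Dlst and Mdh2 were highest in KO1. WT3 stood that far below in 3 members (6.12%, against 2.01%), Pgls, Tkt and Fh1, and KO3 in 2 (4.08%, against 2.94%), Hk2 and Eno1. WT1 did so in 0 members, against 0.439%. KO1 stood 10-fold above every other library for Eno2 (2.04%, against 1.5%) and KO3 for Eno3 (2.04%, against 1.35%), and WT1 and WT3 for 0 members (against 2.18% and 1.41%). Members with 10 reads or fewer numbered 12 in KO1 (24.5%, against 34% of all listed genes), 7 in KO3 (14.3%, against 30.5%), 4 in WT3 (8.16%, against 26.3%) and 1 in WT1 (2.04%, against 20.8%).

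Both lactate dehydrogenase genes had groups that did not overlap, and Ldhb was nearly absent from the KO-named libraries. Ldhb, the subunit that favours oxidation of lactate to pyruvate (chromosome 6, 142490249 to 142507957, mm10), had 536 and 323 reads in WT1 and WT3 and 2 reads in each of KO1 and KO3, or 24.6 and 17.3 CPM against 0.149 and 0.117 CPM. Both KO-named libraries were near 0 and far under both WT-named ones. The pooled level was 162 times higher in the WT-named libraries (95% exact binomial interval 63.0 to 595, for counting error only). Its log2 fold change was −7.23 (SE 2.51), a size that depends on the prior count, with an edgeR adjusted p of 0.433, a DESeq2 adjusted p of 0.000108 and a limma-voom adjusted p of 0.0235. With 1 library left out the DESeq2 adjusted p lay between 0.00109 and 0.0101 and that of edgeR between 0.273 and 0.992. These fits leave a group with a lone library, which is assumed to vary like the other group.

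Ldha, the subunit that favours reduction of pyruvate to lactate (chromosome 7, 46842274 to 46855627), was at 701.8 and 490.3 CPM in WT1 and WT3 and at 115.2 and 377.9 CPM in KO1 and KO3. The groups did not overlap, but KO3 lay closer to WT3 than to KO1. By edgeR it differed by −1.27 on the log2 scale (SE 0.57, unadjusted p = 0.0486, adjusted p = 0.508). It was −0.65 without KO1 and −2.38 without KO3. Per transcript length, Ldhb made up 4.66% and 4.69% of the lactate dehydrogenase transcripts in WT1 and WT3, and 0.180% and 0.0432% in KO1 and KO3. This share does not depend on the scaling between libraries. The 2 groups were apart, and the exact permutation p of 0.33 is the smallest that 2 against 2 libraries can give.

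The sequences upstream of Ldhb, Ldha, Bpgm and Tpi1 are shown because these are the members that a test placed lower at an adjusted or unadjusted threshold. Each is the 250 bases before a RefSeq start site of the gene, the one given first in the sequence table (GRCm38.p6, the assembly of mm10), 5′ to 3′ on the gene's strand. For Ldha this start site lies inside the gene's annotated span, downstream of its outermost start, whereas the other windows adjoin the end of the span. Capitals mark ACGTG or GCGTG on either strand, the core of the hypoxia response element, including ACGTG within the E-box CACGTG, which reads the same on both strands and so counts on each.
Ldhb: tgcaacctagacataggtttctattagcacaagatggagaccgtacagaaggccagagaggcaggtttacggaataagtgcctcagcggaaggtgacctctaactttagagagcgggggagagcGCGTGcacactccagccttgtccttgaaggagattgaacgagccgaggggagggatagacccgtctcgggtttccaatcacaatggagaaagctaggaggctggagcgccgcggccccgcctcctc
Ldha: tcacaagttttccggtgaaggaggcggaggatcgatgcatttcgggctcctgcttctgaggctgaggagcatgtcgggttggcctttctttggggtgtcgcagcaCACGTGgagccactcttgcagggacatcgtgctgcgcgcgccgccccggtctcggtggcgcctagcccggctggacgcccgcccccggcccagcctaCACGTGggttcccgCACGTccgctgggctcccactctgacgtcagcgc
Bpgm: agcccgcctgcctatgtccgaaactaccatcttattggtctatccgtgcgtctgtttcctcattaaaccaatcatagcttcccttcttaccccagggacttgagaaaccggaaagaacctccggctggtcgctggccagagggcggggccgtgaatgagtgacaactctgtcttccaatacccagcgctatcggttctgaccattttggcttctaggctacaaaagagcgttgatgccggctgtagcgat
Tpi1: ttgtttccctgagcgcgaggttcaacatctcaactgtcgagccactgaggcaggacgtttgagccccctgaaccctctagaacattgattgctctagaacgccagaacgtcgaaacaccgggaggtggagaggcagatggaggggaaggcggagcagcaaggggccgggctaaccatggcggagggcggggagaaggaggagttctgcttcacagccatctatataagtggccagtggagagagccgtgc
The windows lie at chr6:142507958-142508207 (minus strand) for Ldhb, chr7:46845554-46845803 (plus strand) for Ldha, chr6:34476106-34476355 (plus strand) for Bpgm and chr6:124814159-124814408 (minus strand) for Tpi1. Ldha had 5 matches, 4 of them from 2 copies of CACGTG, Ldhb had 1, and Bpgm and Tpi1 had 0. Of the 47 listed members with a window in that table, 31 (66%) held a match, against 54.9% of the 8742 genes of the deposited table and 38.6% of all 27025 genes with a window. CACGTG was in 2 members (4.26%, against 8.32% of genes in the deposited table). A match is a string of letters in this window and not a site of binding.

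Bpgm, bisphosphoglycerate mutase, which makes the red cell metabolite that lowers the oxygen affinity of haemoglobin (chromosome 6, 34476356 to 34505136), had 697 and 191 reads in WT1 and WT3 and 3 and 1 in KO1 and KO3. In CPM these were 32.0, 10.2, 0.224 and 0.0587, again with both KO-named libraries near 0. The pooled level was 167 times higher in the WT-named libraries (95% exact binomial interval 65.1 to 615), and the log2 fold change was −7.18 (SE 2.59, adjusted p = 0.433 by edgeR). The adjusted p was 0.000206 in DESeq2 and 0.0341 in limma-voom. With 1 library left out, under the same assumption for the lone library, it lay between 0.00229 and 0.0268 in DESeq2 and between 0.291 and 0.992 in edgeR. Of the 6 erythroid markers 1 was listed, Hba-a1, a haemoglobin alpha chain, at 278.7 and 41.3 CPM in WT1 and WT3 and at 45.8 and 128.2 CPM in KO1 and KO3. Both genes were highest in WT1, while Hba-a1 was lowest in WT3 and Bpgm in KO3. The part of red cells in the Bpgm values was not tested.

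The other enzymes of lower glycolysis differed in direction. Gapdh, which reduces NAD+ at the first oxidative step, was at 376.6 and 178.7 CPM in WT1 and WT3 and at 350.2 and 308.1 CPM in KO1 and KO3, with a log2 fold change of 0.25 (SE 0.51, adjusted p = 0.951 by edgeR). With library size alone as the scaling it was −0.12, so its direction is not given. Pgam1, phosphoglycerate mutase, was at 20.1 and 16.3 CPM against 75.6 and 57.3 CPM, with both KO-named libraries more than 2-fold above both WT-named ones. Its log2 fold change was 1.87 (SE 1.25, adjusted p = 0.731 by edgeR) and stayed between 1.67 and 2.04 with any library left out. Pgk1, the first step that yields ATP, was at 142.6 and 67.1 CPM in WT1 and WT3 and at 29.4 and 116.6 CPM in KO1 and KO3. Pkm, pyruvate kinase, was at 80.1, 23.4, 33.1 and 24.6 CPM in the same order. For both genes the groups overlapped.

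The balance of the 3 enolase genes differed between libraries. Eno1, the ubiquitous isoform, was at 86.3, 48.7 and 90.2 CPM in WT1, WT3 and KO1 and at 2.82 CPM in KO3. Eno3, the muscle isoform, was at 4.32, 3.70 and 0.448 CPM in those libraries and at 44.2 CPM in KO3. Eno2, the neuronal isoform, had 590 reads (44.1 CPM) in KO1 and 1 read in each other library. The KO-named libraries thus differed, as Eno2 stood beside a higher Eno1 in KO1, whereas Eno3 stood far above Eno1 in KO3. Per transcript length Eno1 made up 93.9% and 91.0% of enolase transcripts in WT1 and WT3 but 73.5% in KO1, where Eno2 made up 26%, and 4.68% in KO3, where Eno3 made up 95.2%. Eno2 did not pass edgeR's filter. DESeq2 called it higher (adjusted p = 0.00115) on the reads of KO1 alone. KO1 is also the library with the stromal markers given above.

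Upper glycolysis held 7 listed members. All 7 had a log2 fold change below 0, against 48.6% of all genes tested, with a median of −0.70. Gpi1 was close to 0, at −0.09 (SE 1.37), and was at 0.20 without WT1 and at 0.07 without KO3. Tpi1, triosephosphate isomerase (chromosome 6, 124810586 to 124814158), was at 16.8 and 23.4 CPM in WT1 and WT3 and at 1.49 and 0.235 CPM in KO1 and KO3. The groups were more than 10-fold apart. Its pooled level was 25.1 times higher in the WT-named libraries (95% exact binomial interval 16.8 to 39.5), and its log2 fold change was −4.53 (SE 2.28, adjusted p = 0.589 by edgeR). The DESeq2 adjusted p was 0.0137, and 0.0876, 0.213 and 0.061 without WT1, WT3 and KO3, so this call was lost without any of these.

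The hexokinases, which trap glucose as its phosphate, lay lower in different KO-named libraries. Hk1 was at 14.8 and 20.6 CPM in WT1 and WT3 and at 1.27 and 6.04 CPM in KO1 and KO3, and Hk2, the isoform induced by hypoxia-inducible factor and growth signals, at 19.8 and 10.6 CPM against 8.37 and 0.0587 CPM. Both genes had groups that did not overlap. Of these 2 genes KO1 kept mostly Hk2 and KO3 mostly Hk1. The Hk1 share of their summed transcripts, without Hk3, was 49.1% and 71.4% in WT1 and WT3, 16.4% in KO1 and 99.3% in KO3. The phosphofructokinases overlapped between groups. Pfkp, the platelet isoform, was at 152.2 and 98.2 CPM in WT1 and WT3 and at 119.1 and 35.3 CPM in KO1 and KO3. It was higher in each library than Pfkl, the liver isoform, which stayed between 10.8 and 18.4 CPM. Pfkm was not analysed. Gpi1, glucose phosphate isomerase, varied least, between 28.1 and 41.6 CPM. Aldoa, the main aldolase, was at 293.7, 92.9, 58.3 and 247.2 CPM in WT1, WT3, KO1 and KO3, with a log2 fold change of −0.34 (SE 0.80, adjusted p = 0.954 by edgeR) that was 0.71 without WT1 and 0.37 without KO1.

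**Figure D2:**
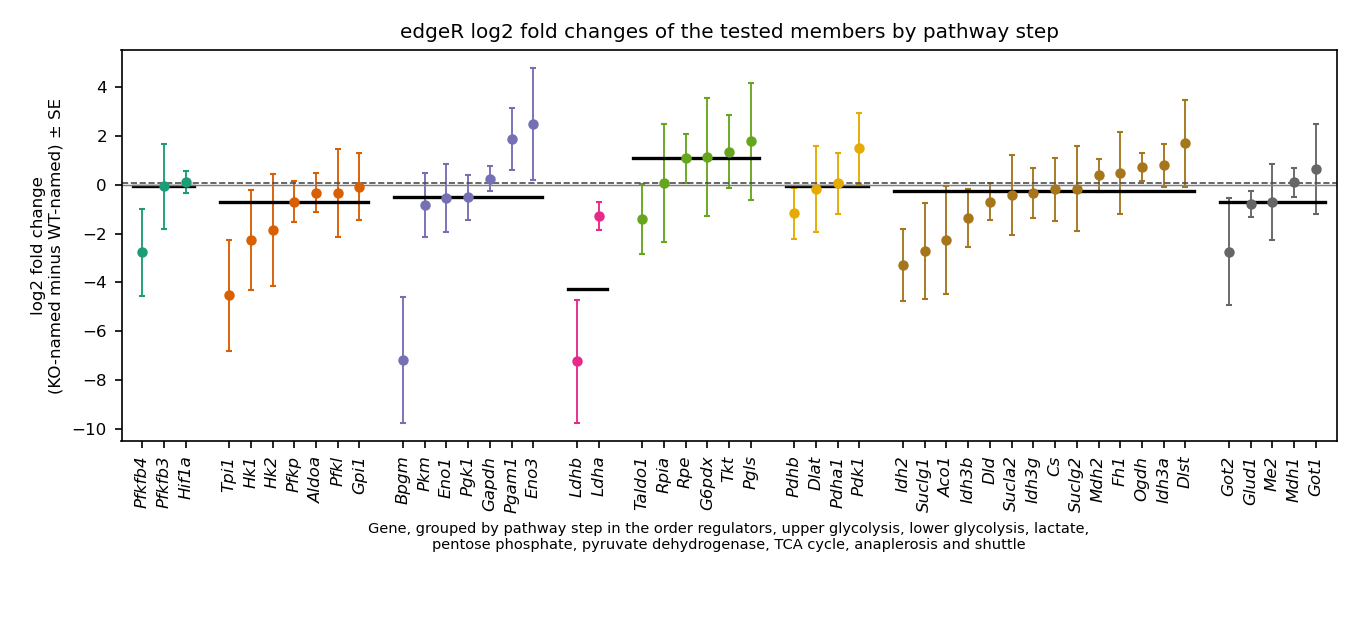
edgeR log2 fold change (KO-named minus WT-named) with its standard error for the 48 tested members, grouped by pathway step. Black bars are step medians and the dashed line is the median of all 8753 genes tested, 0.05. All 7 upper glycolysis genes lie below 0, as do 48.6% of all genes tested. The pentose phosphate median is 1.10, and most error bars cross the dashed line.

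Among the regulators, Hif1a was even across the groups. It was at 456.3 and 748.1 CPM in WT1 and WT3 and at 501.7 and 798.9 CPM in KO1 and KO3, with a log2 fold change of 0.11 (SE 0.43, adjusted p = 0.974 by edgeR) that was −0.19 with library size alone. The libraries numbered 3 were the higher ones in both groups. Pfkfb3, a bifunctional enzyme that makes the allosteric activator of phosphofructokinase, followed the same order more steeply, at 4.73 and 56.6 CPM in WT1 and WT3 and at 4.93 and 53.6 CPM in KO1 and KO3. The related Pfkfb4 was at 6.34 CPM in WT1 and at most 0.672 CPM elsewhere. The numbers do not mark a known shared animal or day.

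The pentose phosphate pathway had 6 listed members, of which 5 had a log2 fold change above 0, and its median of 1.10 was the highest of the 8 steps. That median was −2.67 without KO3, so its direction rested on this library, and it was 4.29, 0.42 and 1.27 without WT1, WT3 and KO1. Rpe, ribulose phosphate epimerase, was the one member of the step with both KO-named libraries on the higher side, at 58.1 and 110.8 CPM against 32.0 and 48.5 CPM (log2 fold change 1.07, SE 1.01, adjusted p = 0.862 by edgeR). For the others the libraries of the WT-named group, the KO-named group or both were far apart. G6pdx, which commits glucose 6-phosphate to the pathway, was at 12.2, 1.23, 0.0747 and 29.2 CPM in WT1, WT3, KO1 and KO3, and Pgls, the next enzyme, at 8.69, 0.0537, 3.36 and 26.5 CPM. Rpia, which makes ribose phosphate, was at 20.1 and 21.1 CPM in WT1 and KO3 and at 0.322 and 0.299 CPM in WT3 and KO1. For these 3 genes WT1 and KO3 were the higher libraries. Tkt, transketolase, was low in WT3 only, at 1.23 CPM against 52.2 to 97.6 CPM elsewhere. Taldo1, transaldolase, was far down in KO1 only, at 2.24 CPM. Its groups did not overlap, as it was at 66.8 and 73.5 CPM in WT1 and WT3 and at 50.2 CPM in KO3.

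Subunits of the pyruvate dehydrogenase complex were scarce together in KO1. Pdha1 and Pdhb encode the alpha and beta chains of its decarboxylase and Dlat its acetyltransferase core. In KO1 they stood at 7.56%, 7.07% and 1.21% of their WT-named means, whereas in KO3 they stood at 199.0%, 81.1% and 173.5%. Pdhb was at 183.5 and 103.7 CPM in WT1 and WT3 and at 10.2 and 116.5 CPM in KO1 and KO3 (log2 fold change −1.18, SE 1.04, adjusted p = 0.846 by edgeR), −0.29 without KO1 and −3.83 without KO3. Dld, the dehydrogenase that this complex shares with the oxoglutarate dehydrogenase complex, was less far down in KO1, at 45.9% of the WT-named mean. The groups did not overlap for Dld, at 110.9 and 151.0 CPM against 60.1 and 101.8 CPM. Pdk1, the kinase that inhibits the complex, lay on the other side after TMM scaling. It was at 22.1 and 11.9 CPM in WT1 and WT3 and at 29.4 and 66.1 CPM in KO1 and KO3 (log2 fold change 1.49, SE 1.46, adjusted p = 0.867 by edgeR).

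Enzymes of the TCA cycle numbered 14, with 9 log2 fold changes below 0 and a median of −0.27. In KO1 the subunits of isocitrate dehydrogenase 3 stood far apart, while those of succinyl-CoA synthetase were all low. Of isocitrate dehydrogenase 3, the NAD-dependent enzyme of the cycle, Idh3b stood at 5.56% of its WT-named mean in KO1 while Idh3g stood at 113.8% and Idh3a at 242.8%. Of oxoglutarate dehydrogenase, Ogdh stood at 207.8% and Dlst at 576.8% there. Of succinyl-CoA synthetase, the shared alpha chain Suclg1, the ATP-linked beta chain Sucla2 and the GTP-linked beta chain Suclg2 stood at 2.28%, 1.11% and 12.7%. In KO3 the same subunits were at 28.2%, 149.2% and 164.4%, so Suclg1 was below its WT-named level in both KO-named libraries and the beta chains in KO1 only.

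**Figure D3:**
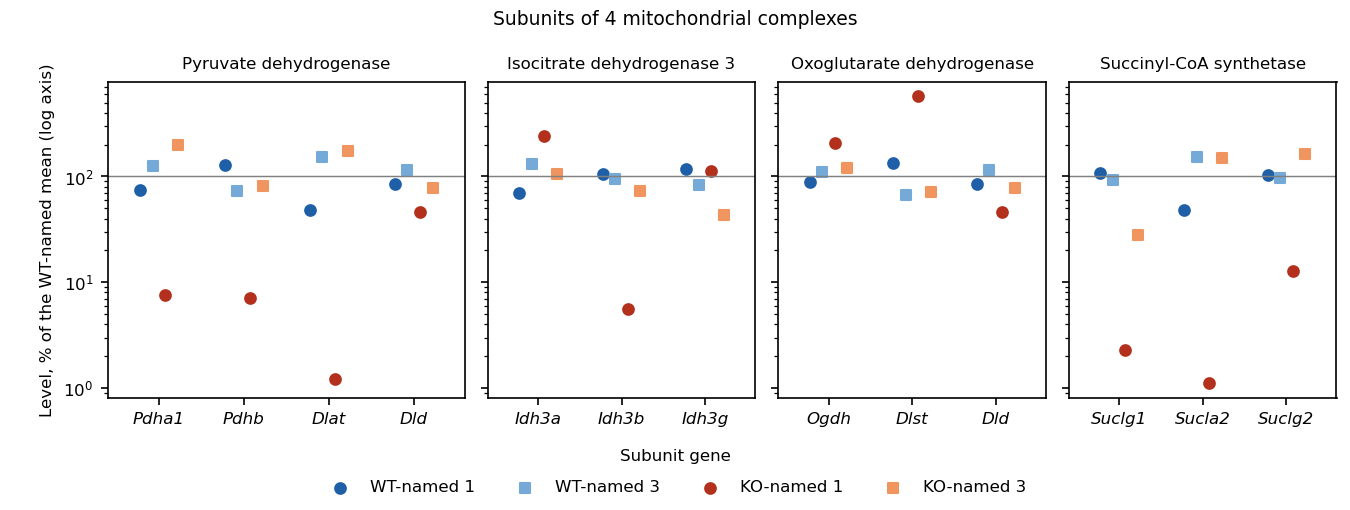
Level of each subunit gene in each library as a percentage of its mean in the WT-named libraries, on a log axis, for 4 mitochondrial complexes, with 1 point per library and a line at 100%. In KO1 (red circles) Pdha1, Pdhb, Dlat, Idh3b, Suclg1, Sucla2 and Suclg2 sit between 1.11% and 12.7%, while Idh3a, Ogdh and Dlst sit at 207.8% or more.

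Ogdh was the highest TCA cycle member in CPM and, after TMM scaling, on the higher side in both KO-named libraries. It was at 282.0 and 164.1 CPM in KO1 and KO3 against 121.3 and 150.1 CPM in WT1 and WT3. WT3 and KO3 had 2798 reads each, so KO3 lay above WT3 only through that scaling. The log2 fold change of Ogdh was 0.72 (SE 0.58, adjusted p = 0.817 by edgeR) and lay between 0.28 and 1.04 with any library left out. Members with both KO-named libraries on the lower side were Idh3b, Dld, Suclg1 and Idh2. Idh2, the NADP-dependent mitochondrial enzyme, was scarce everywhere, at 0.919 and 3.65 CPM in WT1 and WT3 and at 0.224 and 0.235 CPM in KO1 and KO3, the latter at 3 and 4 reads. Aco1, the cytosolic aconitase that also acts as an iron regulatory protein, was at 17.5 CPM in WT1 and at most 3.52 CPM elsewhere. Fh1, fumarate hydratase, was at 75.6 and 93.7 CPM in WT1 and KO1 and at 1.07 and 12.7 CPM in WT3 and KO3. Cs, citrate synthase, and Mdh2, mitochondrial malate dehydrogenase, varied less, between 16.6 and 61.4 CPM and between 85.7 and 172.8 CPM, with overlapping groups.

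Genes that feed the cycle or shuttle its intermediates included several of the lower members. Glud1, glutamate dehydrogenase, was at 295.2 and 239.6 CPM in WT1 and WT3 and at 189.5 and 118.6 CPM in KO1 and KO3. The groups did not overlap, and the log2 fold change was −0.80 (SE 0.54, adjusted p = 0.734 by edgeR), between −1.16 and −0.51 with any library left out. Got2, the mitochondrial aspartate aminotransferase, was at 28.1 and 10.9 CPM against 0.299 and 5.51 CPM. Got1, its cytosolic counterpart, was at 21.1 and 14.2 CPM in WT1 and WT3 and at 2.32 and 53.3 CPM in KO1 and KO3. In both KO-named libraries the balance thus lay further on the cytosolic side, with Got1 at 48.0% and 61.5% of aspartate aminotransferase transcripts in WT1 and WT3 and at 90.5% and 92.2% in KO1 and KO3 (exact permutation p = 0.33, adjusted p = 0.889 over 8 isoenzyme families). Me2, the mitochondrial malic enzyme, was at 10.7 CPM in KO1 and between 30.3 and 38.4 CPM elsewhere. Mdh1, the cytosolic malate dehydrogenase, lay between 117.5 and 298.1 CPM, with overlapping groups.

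**Figure D4:**
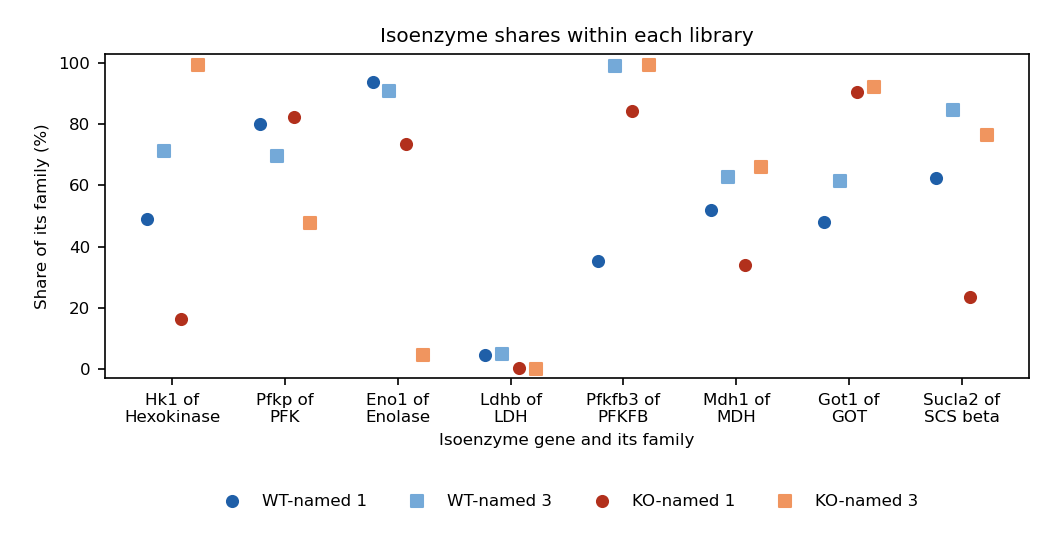
Share of one isoenzyme in the summed transcripts of the listed members of its family within each library, with 1 point per library. Shares are in percent after scaling reads by transcript length, and Hk3 and Pfkm are not in the sums. The groups are apart for Eno1 among enolases, Ldhb among lactate dehydrogenases (LDH) and Got1 among aspartate aminotransferases (GOT), and overlap for the other 5 families.

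Of the 8 isoenzyme families, 3 had groups that did not overlap in share, with an exact permutation p of 0.33 each, the smallest the design allows. With no difference between groups, a share of 0.33 of families would be expected apart, and this count is near that share. For Ldhb and Got1 the spread within a group was smaller than the KO-named minus WT-named difference of −4.56 and 36.6 percentage points. The KO-named Ldhb shares rested on 2 reads of Ldhb per library. In KO1 the Got1 share rested on 31 reads of Got1 and 4 of Got2. For Eno1 the difference of −53.4 percentage points was −18.9 without KO3 and −87.8 without KO1. The Hk1 share had a difference of −2.47 points with an SD of 58.6 points among the KO-named libraries, so the groups were not told apart. The shares of Pfkp, Pfkfb3, Mdh1 and Sucla2 also overlapped.

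Other genes of these pathways were followed in 6 further lists. Of their 57 tested genes edgeR called 0. At an unadjusted p under 0.05 by edgeR, 2 of the 57 were lower (against 6.34% of all genes tested) and 0 higher (against 3.47%). DESeq2 called 6 of 62 listed genes lower (9.68%, against 6.42% of all genes) and 0 higher (against 2.29%). Among transporters of glucose and lactate (5 of 8 listed, median log2 fold change −0.62), Slc16a1, a monocarboxylate transporter, was called by DESeq2 (adjusted p = 0.0259), at 23.6 and 30.6 CPM in WT1 and WT3 and at 0.971 and 2.29 CPM in KO1 and KO3. The highest in this list were Bsg, a chaperone of such transporters, at −0.62 (SE 0.95), and Slc16a6 at 2.88 (SE 1.44). Slc2a1, the main glucose transporter of lymphocytes, chosen after its values were seen, was at 54.9 and 54.8 CPM in WT1 and WT3 and at 16 and 6.45 CPM in KO1 and KO3. Its groups did not overlap, although its edgeR adjusted p was 0.713.

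In the list on pyruvate entry (6 of 9 listed, median 0.33), Pdhx, a structural subunit of the pyruvate dehydrogenase complex, was called by DESeq2 (adjusted p = 0.00311), at 22.3 and 7.51 CPM against 0.523 and 0.0587 CPM. The mitochondrial pyruvate carrier Mpc1 was even, between 229.5 and 266.7 CPM, while Mpc2 was at 38.1 and 64.1 CPM in WT1 and WT3 and at 192.9 and 17.4 CPM in KO1 and KO3. Further TCA genes (18 of 23 listed) had a median of −0.14, and Sdha, a succinate dehydrogenase subunit and among the highest of that list, was at 0.99 (SE 0.67). In the further pentose phosphate list (5 of 7 listed, median −0.83), H6pd was called (DESeq2 adjusted p = 0.0187), and the highest members were Tktl1 at −0.04 (SE 0.97) and Prps2 at −0.08 (SE 1.09). Further glycolysis genes (9 of 20 listed, median −0.34) had 0 DESeq2 calls, and Gpd2 and Adpgk, the highest, had −0.94 (SE 1.68) and 1.37 (SE 1.27).

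Partners and targets of the hypoxia-inducible factor (19 of 20 listed) had a median log2 fold change of 0.17 on 11 members above and 8 below 0. DESeq2 called Ankrd37 and Hif1an lower (adjusted p = 0.00712 and 0.00929). Hif1an, the hydroxylase that restrains the factor, was at 2.67 and 22.7 CPM in WT1 and WT3 and at 0.523 and 0.176 CPM in KO1 and KO3. The highest members, Bnip3l and Ero1l, had 1.15 (SE 0.69) and −0.24 (SE 0.51), and Bnip3l was at 671.2 CPM in KO1 against 136.9 to 225.1 CPM elsewhere.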

How the data were processed

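Per the labels' protocols, Trizol RNA of sorted adipose ILC2 went into Smart mRNA-seq libraries. Per the submitters' processing notes, reads were placed on mm10. For the aligner, counter, annotation and strand setting, the sources used here give nothing. The authors deposited expected counts per gene and library, of which 20.0% to 21.6% are not whole and which were rounded for tests. The authors also deposited a log2 fold change, p-value and q-value per gene from DESeq2, per the file headers. A further 12 per-sample columns were not used. Levels between genes are CPM per kilobase of the longest transcript, computed from the counts.

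The columns numbered 1 match a sample by library name, and those numbered 3 match only a group. The libraries of a group differed beyond counting noise (chi-square over degrees of freedom 273.5 and 444.7), which shows only that none was deposited again under another name. Entrez numbers of 10906 genes were found in RefSeq (GRCm38.p6), and the longest GENCODE transcript gave all 49 members a length.

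The main test was edgeR 4.0.16 quasi-likelihood (R 4.3.3) with TMM scaling, filterByExpr (8753 genes) and Benjamini-Hochberg adjustment. The SE is the log2 fold change divided by the square root of F. Alternatives used DESeq2 1.42.0, limma-voom 3.58.1, other scalings, no filter, a replicate block and each library left out. Isoenzyme shares had exact 2-sided permutation tests (scipy 1.17.1) adjusted over 8 families. A count of 0 allows up to 0.138 to 0.224 CPM (3 reads), and floors and intervals cover counting error only. Scripts were tested on simulated data. Every member was named or accounted for, with full statistics for those at an unadjusted p under 0.05 and the highest of each step. Of each further list the 2 highest genes and those called were named, except that some results of the further TCA list are not reported here. Members and lists were chosen with earlier results of these data known.

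Gapdh, Eno1, Ldha, Pgk1, Pgam1, Tpi1, Aldoa and Pkm have near-identical processed pseudogenes, so their counts are uncertain where counting could split reads. Counts were not whole in 13 members, among them Gapdh and Eno1 but none of the other genes just named. Without a stated strand, antisense reads cannot be told apart.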

Additional observations from a re-analysis of the deposited data

How the results depend on the processing

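All settings are KO-named minus WT-named. Calls over all genes were 0 in the main test and with other scalings or no filter, and 25 with the replicate block, 90 by the likelihood ratio test, 201 by limma-voom and 952 by DESeq2. With 1 library left out edgeR called 0 to 7 genes and DESeq2 694 without WT1, 415 without WT3, 987 without KO1 and 1679 without KO3. Of the members, limma-voom called 2 and DESeq2 4, and edgeR called 0 with the block, with another scaling or filter and with any library left out. With 1 library left out, an alternative chosen after seeing the data, DESeq2 called 5 members without WT1, 3 without WT3, 5 without KO1 and 12 without KO3. Bpgm and Ldhb were among the calls each time. These fits leave a group with a lone library. Calls over all genes also varied between these fits, as given above. Whether members were called more often than other genes was not tested.

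The replicate block changed no call of a member, and its number pairs no known animal or day (correlation of same-numbered deviations −0.00818). With the block the TCA cycle median was −0.61 and the median of all members −0.73. Scaling moved the all-gene median from 0.05 (TMM) to 0.13 (RLE) or −0.28 (library size alone). With library size alone the upper glycolysis median was −1.06, Hif1a −0.19 and Gapdh −0.12. With 1 library left out the step medians ranged from −2.28 to 0.60 for regulators, −1.54 to −0.44 for upper glycolysis, −0.49 to 0.57 for lower glycolysis, −2.67 to 4.29 for pentose phosphate, −3.78 to 0.90 for pyruvate dehydrogenase and −1.28 to 0.00 for the TCA cycle, and from −1.69 to −0.09 over all members. In the same settings Hif1a ranged from −0.28 to 0.60, Aldoa from −1.73 to 0.71 and Gapdh from −0.12 to 0.86. Members with groups apart numbered 16 to 29 on the lower side and 8 to 16 on the higher side, against 28.6% to 34.6% and 36.7% to 45.2% of all listed genes. Of 96 further edgeR quasi-likelihood log2 fold changes for 12 named genes, 89 kept their direction.

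For isoenzyme shares the Hk1 difference was 1.70 percentage points on counts not scaled by length. With 1 library left out the differences ranged from −43.9 to 39.0 for Hk1, −27.2 to 7.67 for Pfkp, −7.50 to 56.6 for Pfkfb3, −23.5 to 8.43 for Mdh1 and −50.0 to 2.72 for Sucla2, while those of Ldhb (−4.63 to −4.49) and Got1 (29.9 to 43.4) kept their sign. The causes were not tested.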

Other observations

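The authors' deposited table gives Ldhb a log2 fold change of −7.43 with a q-value of 2.78e-05, and no other member a q-value under 0.05 (4.17% of all genes had one). In the authors' deposited table the sign of the log2 fold change is opposite to that from the deposited counts in 13 of 48 members (27.1%) and in 17.3% of all genes tested. Tpi1 is at 1.16 in the authors' deposited table and at −4.53 from the counts, and Gpi1 at 1.25 against −0.09. Which libraries entered the authors' comparison is not given in the sources used here.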
